A study of Oryza sativa with 14 samples.

Results

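The response of wild-type rice leaves to acute heat was read from the 6 wild-type (WT) libraries of a series of 14 leaf RNA-seq libraries, by comparing the 3 libraries labelled as heat-treated with the 3 labelled as untreated. WT is the japonica cultivar Zhonghua 11 (ZH11), and all plants were pot-grown seedlings at the 4-leaf stage. The heat-treated group (WT_heat) was held at 42 °C for 0.5 h before leaves were harvested, and the untreated group (WT_control) stayed under normal growth conditions. The other 8 libraries come from the transgenic htg3 lines cr12 and cr2, with 2 heat-treated and 2 untreated libraries per line. They entered the fit for its estimate of spread and are compared with WT once, near the end. Nothing in the labels says that replicates are separate plants or gives the hour of harvest, and replicate numbers below only follow the order of deposit and pair no libraries, so a p-value here compares a difference with the scatter of these libraries, which may be technical.

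Heat unfolds proteins and makes membranes more fluid. Plants answer within minutes through heat shock factors, which switch on chaperone genes, and a leaf also adjusts water transport, hormone signals, redox enzymes, sugar and nitrogen metabolism and the photosynthetic apparatus. Abscisic acid (ABA) governs water saving, jasmonate governs wound and defence responses, and gibberellin, brassinosteroid and auxin govern growth. All these functions were examined here through 38 gene lists with 3 or more members each.

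All 28823 genes that passed the expression filter were tested, out of 55986 loci in the table. By edgeR's quasi-likelihood test at a Benjamini-Hochberg adjusted p under 0.05, which is what "called" means below, 7134 genes rose after heat (24.8% of the genes tested) and 7588 fell (26.3%), 51.1% in all. A change of at least 2-fold was called in 26.1% of the genes. The median log2 change was 1.02 among the genes that rose and -1.02 among those that fell, and it was -0.05 over all tested genes. All 3 heat-treated libraries lay above all 3 untreated ones in 28.3% of the tested genes and below them in 32.2%. Genes with fewer than 3 sequenced fragments over 1 group have no reliable fold. They were set at the lower bound that 3 fragments over that group allow. On that scale 1483 called genes were at least 4-fold higher after heat and 1334 at least 4-fold lower. Larger changes were less even on that scale: 355 genes were at least 16-fold higher against 159 at least 16-fold lower, and 104 were at least 64-fold higher against 12 at least 64-fold lower. By fitted folds without the bound, 524 were higher against 439 lower at 16-fold, and 262 against 235 at 64-fold. Much of the gap at large folds thus depends on the bound.

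**Figure D1:**
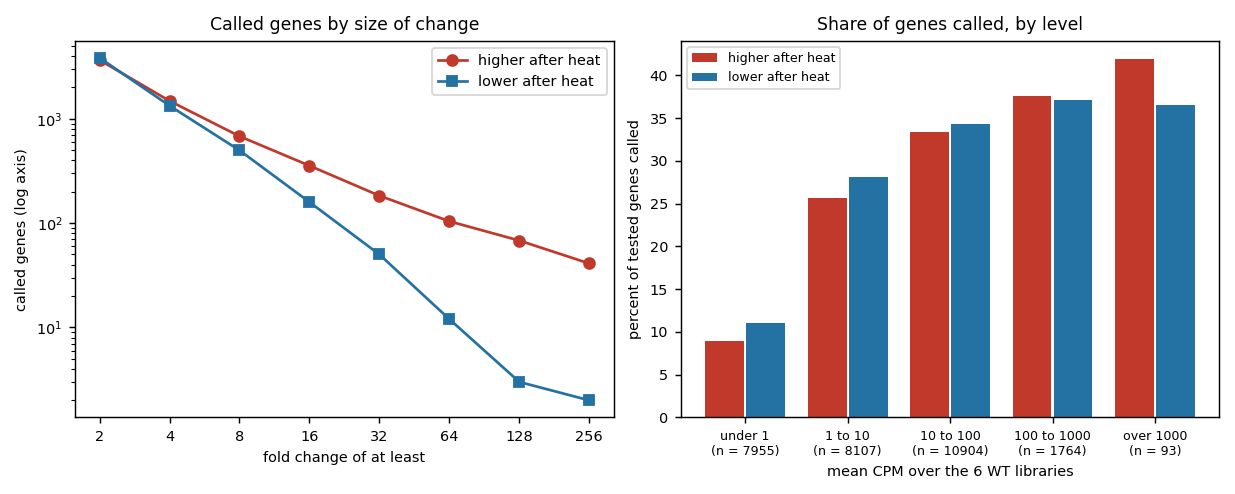
Left, number of called genes (log axis) whose fold change reached each size, for genes higher (circles) and lower (squares) after heat in WT leaves. Genes with fewer than 3 fragments over 1 group are at their lower bound. Right, percent of tested genes called higher and lower, by mean CPM over the 6 WT libraries, with the number of genes n under each pair of bars. The curves start close together, with 3649 genes higher and 3836 lower at 2-fold, and part at large folds, with 41 higher and 2 lower at 256-fold. Without the bound 97 were higher and 40 lower at 256-fold.

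The transcripts that rose took up a large part of the heat-treated libraries. Called genes at least 4-fold higher held 22%, 25.5% and 24.2% of all counts in the 3 heat-treated libraries, against 1.8%, 1.66% and 1.69% in the 3 untreated ones. This describes genes chosen by the same values, so it carries no test. In the heat-treated libraries 875, 769 and 927 genes together held 50% of all counts, against 1142, 1083 and 1164 genes in the untreated libraries. Each WT library held 93.3 to 97.0 M counts (M, mega). Libraries of a group correlated at 0.966 to 0.973 after heat and at 0.974 to 0.975 without it, against 0.892 to 0.912 between groups. The median coefficient of variation was 9.65% after heat and 7.24% without it, over 12761 genes with a mean of at least 10 CPM (counts relative to each library's scaled total, in the usual CPM unit, which is the level used throughout). The first principal component of the 6 libraries (67.8% of variance) parted the treatments. The second (10.4%) set WT_heat replicate 2 at -90.7, apart from replicates 1 and 3 at 45.9 and 53.5. Calls of named genes that rest on this library or on WT_heat replicate 3 are given without it. Counts of several lists also changed without 1 of these libraries, and most are given with all libraries only. For example, 15 genes of ABA signalling rose without either library, against 16 with all, and 7 aquaporin genes rose without WT_heat replicate 3, against 8. Leaf tissue is a mix of cells, and fewer cells of a type cannot be told apart from less RNA per cell.

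**Figure D2:**
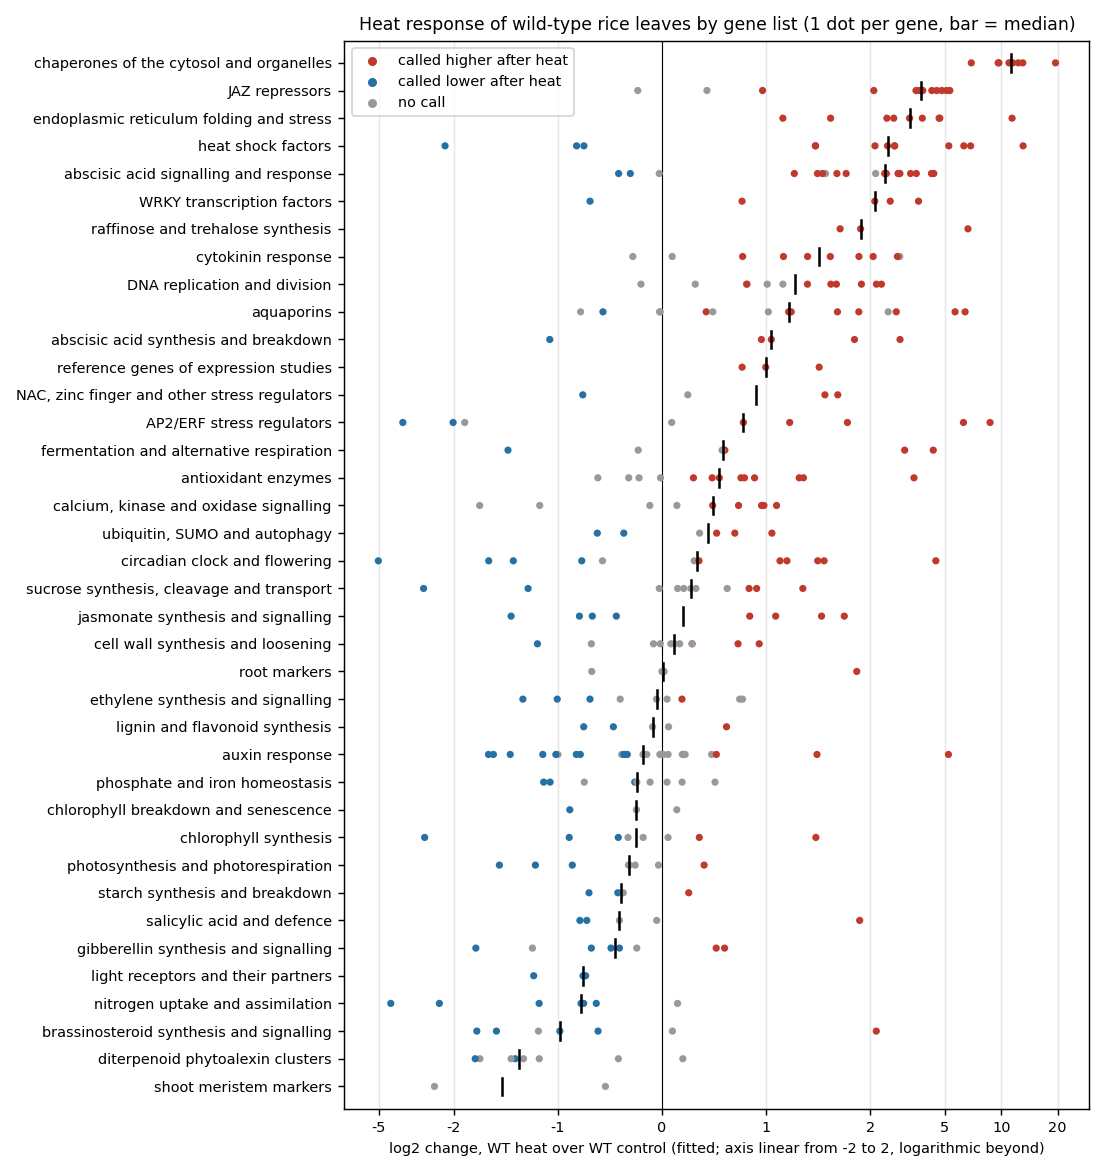
Fitted log2 change (WT heat over WT control) of every tested member of the gene lists, 1 dot per gene, coloured by call, with a bar at each list's median. Lists are ordered by median. The axis is linear between -2 and 2 and logarithmic beyond. Chaperones lie farthest right with a median of 11.23, and JAZ repressors follow at 3.74. Shoot meristem markers (-1.54, from 2 tested genes with hardly any counts) have the lowest median. Diterpenoid phytoalexin genes (-1.37) and brassinosteroid genes (-0.98) also lie on the left.

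Of 533 listed genes 322 were matched and tested, so many lists hold only a part of their planned members. Of these 322 genes, 147 rose and 74 fell. A list's counts are read against the 24.8% of all tested genes that rose and the 26.3% that fell, and a gene without a call is not shown to be unchanged. Outside protein folding, most tested genes of ABA signalling rose. ABA is sensed by receptors that hold back PP2C phosphatases, which frees SnRK2 kinases (SAPK in rice) to act on transcription factors such as BZIP23, and PP2C and dehydrin genes are themselves induced by the hormone. In this list 16 of 21 tested genes rose and 2 fell, against 24.8% and 26.3% of all genes, and the median log2 change was 2.39 against -0.05. All 8 phosphatases and all 4 dehydrins that were called rose. PP2C30 (LOC_Os03g16170), a PP2C phosphatase, had 98.9, 149 and 115 CPM in heat-treated leaves, against 4.47, 6.12 and 6.97 CPM in untreated leaves (log2 change 4.37 ± 0.23, adjusted p = 2.6e-08). RAB25 (LOC_Os02g44870), a dehydrin, had 958, 1338 and 976 CPM after heat and 50.9, 69.5 and 52.0 CPM without heat (log2 change 4.25 ± 0.18, adjusted p = 3.7e-09). Every heat-treated library stood above every untreated one for these 2 genes. The transcription factor gene BZIP23 (LOC_Os02g52780), chosen after its values were seen like every gene named besides the rule, had 170.4, 226 and 189 CPM in heat-treated leaves, against 25.1, 27.5 and 28.6 CPM in untreated leaves (log2 change 2.85 ± 0.13, adjusted p = 8.4e-09). The kinase gene SAPK2 rose by 1.68 ± 0.13 and SAPK6 by 2.39 ± 0.22.

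The 2 falls in the ABA signalling list were small. SAPK1 (LOC_Os03g27280) had 25.7, 27.9 and 23.1 CPM in heat-treated leaves, against 36.7, 34.2 and 31.4 CPM in untreated leaves (log2 change -0.42 ± 0.10, adjusted p = 0.0052). SAPK10 (LOC_Os03g41460) had 7.51, 6.94 and 6.21 CPM after heat and 8.59, 8.78 and 8.11 CPM without heat (log2 change -0.30 ± 0.12, adjusted p = 0.045). Both kinase genes stood below the untreated range in every heat-treated library. The SAPK10 call ended without WT_heat replicate 2 or 3 or WT_control replicate 1, 2 or 3 (log2 change -0.34 to -0.19, adjusted p = 0.06 to 0.22), and its adjusted p was 0.047 to 0.22 over 12 alternatives. SAPK8 (72.9 to 77.5 CPM after heat and 73.8 to 77.5 CPM without), the late embryogenesis abundant gene LEA3 (1.099 to 2.14 CPM after heat and 0.0411 to 1.14 CPM without) and the dehydrin gene RAB16D (0.317 to 0.349 CPM after heat and 0 to 0.164 CPM without) gave no call. In ABA metabolism 4 of 5 tested genes rose and 1 fell (median 1.05). NCED3 (LOC_Os03g44380), whose dioxygenase catalyses the committed step of ABA synthesis, had 30.3, 37.9 and 27.8 CPM in heat-treated leaves, against 3.31, 5.43 and 4.24 CPM in untreated leaves (log2 change 2.89 ± 0.18, adjusted p = 9.1e-08). ZEP1 (LOC_Os04g37619), the zeaxanthin epoxidase upstream of it, had 679, 726 and 616 CPM after heat and 198, 181 and 182 CPM without heat (log2 change 1.85 ± 0.10, adjusted p = 2.4e-08). The groups did not overlap for either gene of synthesis. The hydroxylases that inactivate ABA split. ABA8OX1 (LOC_Os02g47470) had 9.24, 15.8 and 11.5 CPM in heat-treated leaves, against 34.9, 24.6 and 17.6 CPM in untreated leaves (log2 change -1.08 ± 0.29, adjusted p = 0.0079), whereas ABA8OX2 and ABA8OX3 rose by 0.96 ± 0.20 and 1.05 ± 0.19.

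Of 8 tested genes of jasmonate synthesis and perception, 4 rose and 4 fell (median 0.20), against 24.8% and 26.3% of all genes. Of the 5 enzymes 4 rose, and AOS2 and all 3 receptor genes fell. AOC (LOC_Os03g32314), allene oxide cyclase, had 166, 275 and 211 CPM in heat-treated leaves, against 59.5, 66.8 and 67.7 CPM in untreated leaves (log2 change 1.75 ± 0.15, adjusted p = 1.3e-06). AOS1 (LOC_Os03g55800), allene oxide synthase, had 38.8, 59.4 and 53.8 CPM after heat and 18.8, 16.04 and 17.67 CPM without heat (log2 change 1.53 ± 0.14, adjusted p = 2.1e-06). Its paralog AOS2 (LOC_Os03g12500) had 6.27, 11.5 and 9.75 CPM in heat-treated leaves, against 23.4, 22.3 and 29.4 CPM in untreated leaves (log2 change -1.45 ± 0.25, adjusted p = 0.00036). All 3 genes separated the groups, the first pair upward and AOS2 downward. OPR7, the reductase of the next step, and JAR1, which makes the active isoleucine conjugate, rose by 1.09 ± 0.12 and 0.84 ± 0.11. The receptor gene COI1A (LOC_Os01g63420) had 80.1, 63.8 and 75.1 CPM after heat and 123, 125 and 131 CPM without heat (log2 change -0.79 ± 0.11, adjusted p = 5.2e-05), and the other 2 receptor genes, COI1B and COI2, fell by 0.67 ± 0.08 and 0.44 ± 0.10 on the log2 scale.

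JAZ proteins repress jasmonate-responsive transcription until the receptor has them degraded, and jasmonate induces their genes. Of 12 tested JAZ genes 10 rose and 2 gave no call (median 3.74). The study may have picked this family from these very samples, and its count is then no independent evidence of direction. JAZ13 (LOC_Os10g25230) had 6.47, 22.4 and 10.1 CPM in heat-treated leaves, against 0.39, 0.232 and 0.349 CPM in untreated leaves (log2 change 5.32 ± 0.64, adjusted p = 2.4e-05). JAZ5 (LOC_Os04g32480) had 4.52, 8.21 and 6.65 CPM after heat and 0.246, 0.0807 and 0.232 CPM without heat (log2 change 5.10 ± 0.58, adjusted p = 1.3e-05). WT_heat replicate 2 stood highest of the 3 heat-treated libraries in 11 of the 12 genes, and 10 genes rose without it as well. This was not particular to JAZ genes. The same library was highest in 17 of 21 ABA signalling genes and 9 of 9 endoplasmic reticulum genes, but in 0 of 12 replication genes. JAZ3 (54.6 to 65.5 CPM after heat and 64.3 to 74.1 CPM without) and JAZ4 (83.9 to 189 CPM after heat and 73.2 to 134 CPM without) gave no call. JAZ9, JAZ10 and JAZ11 are neighbours of similar sequence, so how reads were shared among them is uncertain.

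Defence genes moved in different directions. WRKY transcription factors, many of which act in defence, rose in 4 of 5 tested genes and fell in 1 (median 2.12), the other 21 of 26 listed genes not being matched. WRKY76 (LOC_Os09g25060) had 61.5, 93.2 and 39.1 CPM in heat-treated leaves, against 3.27, 7.01 and 5.45 CPM in untreated leaves (log2 change 3.62 ± 0.45, adjusted p = 2.8e-05). WRKY71 (LOC_Os02g08440) had 98.7, 149 and 138 CPM after heat and 24.0, 23.21 and 18.2 CPM without heat (log2 change 2.56 ± 0.21, adjusted p = 8.2e-07). Both separated the groups, with WT_heat replicate 2 highest. WRKY24 (LOC_Os01g61080) had 4.97, 5.78 and 5.58 CPM in heat-treated leaves, against 11.1, 7.11 and 8.14 CPM in untreated leaves (log2 change -0.69 ± 0.25, adjusted p = 0.033). The WRKY24 call ended without WT_heat replicate 1, 2 or 3 or WT_control replicate 1 or 3 (log2 change -0.74 to -0.49, adjusted p = 0.0501 to 0.14), and its adjusted p was 0.016 to 0.14 over 12 alternatives. In the list of salicylic acid and defence genes, 1 of 5 rose and 2 fell (median -0.41), against 24.8% and 26.3% of all genes. The salicylic acid receptor gene NPR1 (LOC_Os01g09800) had 35.1, 47.5 and 37.4 CPM in heat-treated leaves, against 14.1, 9.42 and 8.65 CPM in untreated leaves (log2 change 1.90 ± 0.19, adjusted p = 5.5e-06). PAL1 (LOC_Os02g41630), phenylalanine ammonia-lyase at the entry of phenolic metabolism, had 2211, 2113 and 2234 CPM after heat and 3367, 3517 and 3925 CPM without heat (log2 change -0.72 ± 0.12, adjusted p = 0.00024). NPR1 stood above and PAL1 below the untreated range in all 3 heat-treated libraries. The chitinase gene CHT1 (LOC_Os06g51060) had 9.33, 10.8 and 11.3 CPM in heat-treated leaves, against 19.3, 20.1 and 14.8 CPM in untreated leaves (log2 change -0.79 ± 0.26, adjusted p = 0.024). The CHT1 call ended without WT_heat replicate 1, 2 or 3 or WT_control replicate 1 or 2 (log2 change -0.80 to -0.68, adjusted p = 0.051 to 0.085), and its adjusted p was 0.0029 to 0.085 over 12 alternatives. PAL2 (33.8 to 53.5 CPM after heat and 44.3 to 65.5 CPM without) and the pathogenesis-related gene PBZ1 (117 to 173 CPM after heat and 130.3 to 164 CPM without) gave no call.

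Genes that make diterpenoid phytoalexins, the antimicrobial compounds of rice, were called lower in 2 of 8 tested genes, about the 26.3% of all genes, and gave no call in 6 (median -1.37). CPS2 (LOC_Os02g36210), the first cyclase of this pathway, had 16.7, 16.1 and 13.3 CPM in heat-treated leaves, against 31.3, 47.9 and 42.9 CPM in untreated leaves (log2 change -1.41 ± 0.26, adjusted p = 0.00066), and all heat-treated libraries stood below the untreated ones. The oxidase gene CYP99A2 fell by 1.79 ± 0.27 on the log2 scale, from a mean under 5 CPM. The 6 without a call include the cyclase gene KSL10, at 0.493 to 4.90 CPM after heat and 2.42 to 9.75 CPM without. In the phenolic pathway the lignin gene CAD2 (LOC_Os02g09490), cinnamyl alcohol dehydrogenase, had 207, 223 and 228 CPM in heat-treated leaves, against 141, 137 and 150.0 CPM in untreated leaves (log2 change 0.62 ± 0.10, adjusted p = 0.00022). The flavonoid genes CHS1 (LOC_Os11g32650), chalcone synthase, with 263, 266 and 319.8 CPM after heat and 496, 446 and 487 CPM without heat (log2 change -0.75 ± 0.13, adjusted p = 0.00044), and CHI (LOC_Os03g60509), chalcone isomerase, with 132, 119.9 and 126 CPM in heat-treated leaves, against 174, 167 and 182 CPM in untreated leaves (log2 change -0.47 ± 0.14, adjusted p = 0.013), fell. The groups did not overlap for these 3 genes. The monolignol gene 4CL3 (401 to 449.6 CPM after heat and 361 to 442 CPM without) gave no call.

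Cytokinin response genes rose in 7 of 10 tested members, with no call in 3 (median 1.51, or 1.39 with RR7, which has hardly any counts, at its bound). Type A response regulators are early targets of cytokinin that dampen its signal. RR9 (LOC_Os11g04720) had 53.9, 56.7 and 48.3 CPM in heat-treated leaves, against 9.0004, 8.83 and 5.10 CPM in untreated leaves (log2 change 2.79 ± 0.20, adjusted p = 3.7e-07). RR1 (LOC_Os04g36070) had 55.1, 50.9 and 43.7 CPM after heat and 12.8, 11.7 and 11.1 CPM without heat (log2 change 2.07 ± 0.15, adjusted p = 2.7e-07). Both separated the groups. The cytokinin-degrading oxidase gene CKX4 rose by 1.89 ± 0.17. The activating enzyme gene LOG (LOC_Os01g40630) had 252, 337 and 466 CPM in heat-treated leaves, against 300.5, 163 and 153 CPM in untreated leaves (log2 change 0.78 ± 0.30, adjusted p = 0.045), and its groups overlapped through WT_control replicate 1. The LOG call ended without WT_heat replicate 2 or 3 or WT_control replicate 2 or 3 (log2 change 0.56 to 0.82, adjusted p = 0.064 to 0.15), and its adjusted p was 0.0054 to 0.15 over 12 alternatives. RR2 (69.4 to 101 CPM after heat and 75.9 to 96.9 CPM without), CKX2 (4.06 to 6.65 CPM after heat and 5.37 to 7.03 CPM without) and RR7 (0 to 0.196 CPM after heat and 0 to 0.0387 CPM without) gave no call.

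In the auxin list 3 of 25 tested genes rose and 10 fell (median -0.18), against 24.8% and 26.3% of all genes. GH3 enzymes conjugate auxin to amino acids and so withdraw it from signalling. GH3-8 (LOC_Os07g40290) had 45.4, 51.6 and 51.5 CPM in heat-treated leaves, against 1.35, 1.21 and 1.38 CPM in untreated leaves (log2 change 5.23 ± 0.35, adjusted p = 1.9e-07), and was 37.6-fold higher. GH3-2 (LOC_Os01g55940) had 45.1, 43.4 and 28.8 CPM after heat and 17.5, 11.5 and 12.8 CPM without heat (log2 change 1.49 ± 0.28, adjusted p = 0.00073). All heat-treated libraries stood above the untreated ones for both, while GH3-1 (0.668 to 0.94 CPM after heat and 0.282 to 0.759 CPM without) gave no call. Aux/IAA proteins repress auxin-responsive transcription, and auxin induces many of their genes. Of 22 tested, IAA13 rose (0.52 ± 0.12), 10 fell and 11 gave no call. IAA1 (LOC_Os01g08320) had 30.4, 32.6 and 30.4 CPM in heat-treated leaves, against 93.0, 109 and 94.4 CPM in untreated leaves (log2 change -1.66 ± 0.10, adjusted p = 6.3e-08). IAA10 (LOC_Os02g57250) had 49.6, 42.4 and 43.8 CPM after heat and 113, 131 and 129 CPM without heat (log2 change -1.46 ± 0.08, adjusted p = 5.3e-08). Neither gene overlapped between groups.

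Called genes of gibberellin, brassinosteroid and ethylene moved both ways. In the gibberellin list 2 of 8 genes rose and 4 fell (median -0.45), against 24.8% and 26.3% of all genes. GA20OX2 (LOC_Os01g66100), the oxidase gene known as the green revolution gene sd1, had 8.60, 3.92 and 4.01 CPM in heat-treated leaves, against 20.5, 18.2 and 18.4 CPM in untreated leaves (log2 change -1.79 ± 0.26, adjusted p = 0.0001). KO2 (LOC_Os06g37364), ent-kaurene oxidase, had 12.5, 12.5 and 11.3 CPM after heat and 16.8, 24.6 and 16.85 CPM without heat (log2 change -0.68 ± 0.15, adjusted p = 0.0024). Both stood below the untreated range in every heat-treated library. The receptor gene GID1 (LOC_Os05g33730) had 121, 144 and 128.3 CPM in heat-treated leaves, against 87.7, 89.4 and 82.0 CPM in untreated leaves (log2 change 0.60 ± 0.10, adjusted p = 0.00034). GID2 (LOC_Os02g36974), the F-box partner that has the DELLA repressor degraded, had 214, 222 and 224 CPM after heat and 162, 153 and 145 CPM without heat (log2 change 0.52 ± 0.12, adjusted p = 0.0037). These 2 genes stood above the untreated range throughout. The DELLA repressor gene SLR1 fell by 0.49 ± 0.08 on the log2 scale. CPS1 (7.22 to 11.9 CPM after heat and 10.6 to 13.0 CPM without) and the gibberellin-inactivating gene EUI1 (0.668 to 1.396 CPM after heat and 2.02 to 2.34 CPM without) gave no call.

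Of 7 tested brassinosteroid genes 1 rose and 4 fell (median -0.98), against 24.8% and 26.3% of all genes. The synthesis genes D11 (LOC_Os04g39430), with 2.402, 1.43 and 2.20 CPM in heat-treated leaves, against 6.74, 6.38 and 7.59 CPM in untreated leaves (log2 change -1.78 ± 0.26, adjusted p = 0.00012), and D2 (LOC_Os01g10040), with 4.38, 2.89 and 4.72 CPM after heat and 12.3, 11.4 and 12.4 CPM without heat (log2 change -1.59 ± 0.18, adjusted p = 1.5e-05), fell. Their pathway partner DWARF4 (LOC_Os03g12660) had 24.6, 26.3 and 12.2 CPM in heat-treated leaves, against 4.62, 4.79 and 4.74 CPM in untreated leaves (log2 change 2.16 ± 0.31, adjusted p = 0.00011). The 3 cytochrome P450 genes thus moved both ways, each without overlap between groups. The receptor gene BRI1 fell by 0.61 ± 0.09 and the transcription factor gene BZR1 by 0.98 ± 0.15 on the log2 scale. DWARF (15.8 to 22.9 CPM after heat and 14.6 to 19.6 CPM without) and BU1 (0.141 to 0.382 CPM after heat and 0.383 to 0.811 CPM without) gave no call. In the ethylene list 1 of 9 rose and 3 fell (median -0.05), against 24.8% and 26.3% of all genes. All 4 called ethylene genes code for receptors. ETR2 (LOC_Os04g08740) had 14.7, 15.6 and 16.5 CPM in heat-treated leaves, against 41.6, 38.6 and 37.9 CPM in untreated leaves (log2 change -1.33 ± 0.09, adjusted p = 2.9e-07). ETR3 (LOC_Os02g57530) had 22.9, 23.6 and 27.1 CPM after heat and 55.6, 42.1 and 50.1 CPM without heat (log2 change -1.01 ± 0.14, adjusted p = 0.0001). ERS1 (LOC_Os03g49500) had 69.5, 75.1 and 75.3 CPM in heat-treated leaves, against 67.6, 61.8 and 63.0 CPM in untreated leaves (log2 change 0.19 ± 0.07, adjusted p = 0.043). ETR2 and ETR3 lay clearly below their untreated levels, whereas the ERS1 difference was small. The ERS1 call ended without WT_heat replicate 2 or 3 or WT_control replicate 2 or 3 (log2 change 0.17 to 0.21, adjusted p = 0.057 to 0.14), and its adjusted p was 0.0038 to 0.14 over 12 alternatives. ERS2 fell by 0.69 ± 0.13 on the log2 scale, and the synthesis gene ACS2 gave no call (2.23 to 9.21 CPM after heat and 2.004 to 4.54 CPM without).

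**Figure D3:**
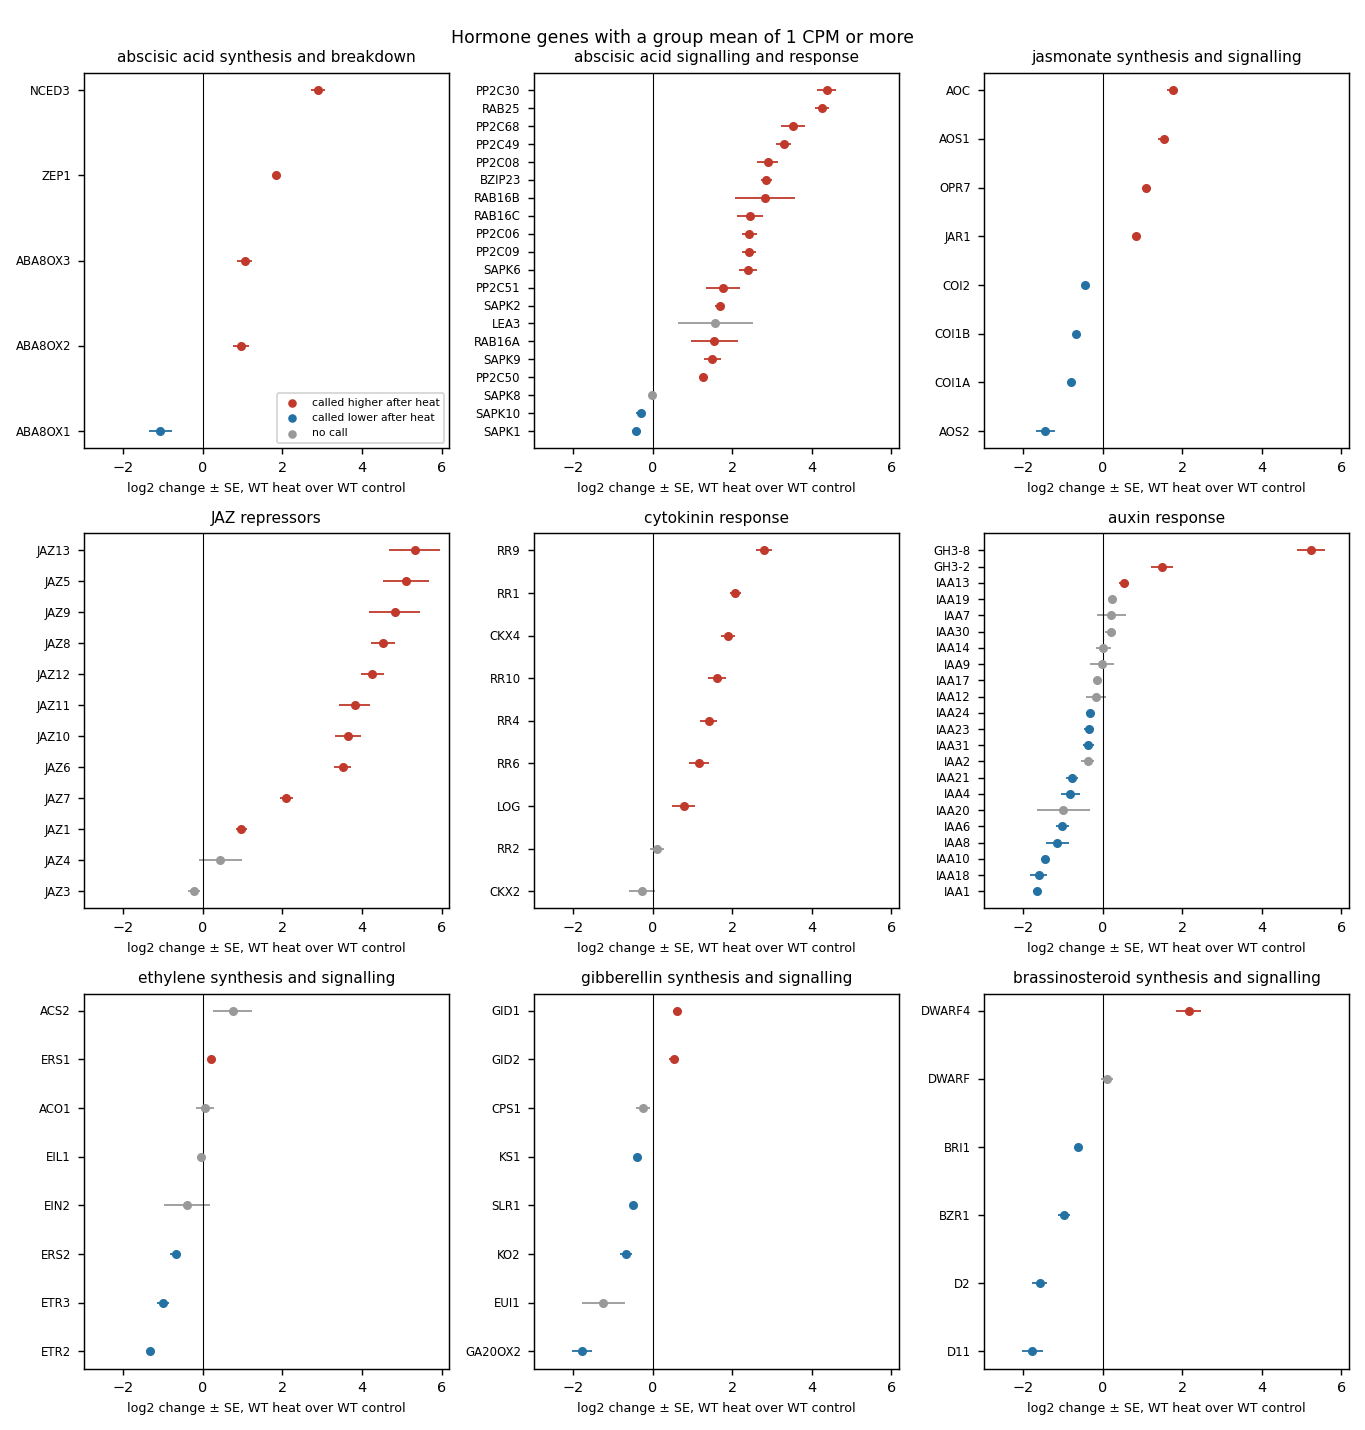
Fitted log2 change ± SE (WT heat over WT control; horizontal axis) of hormone genes whose mean reached 1 CPM in at least 1 group, 1 panel per list, coloured by call. ABA signalling and JAZ genes lie mostly right of 0, up to 4.37 for PP2C30 and 5.32 for JAZ13. Jasmonate receptors, brassinosteroid signalling genes and most Aux/IAA genes lie left of 0.

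Water channel genes rose in 8 of 15 and fell in 1 (median 1.22). Aquaporins of the PIP group carry water across the plasma membrane and those of the TIP group across the vacuole membrane. TIP1;2 (LOC_Os01g74450) had 2188, 2541 and 1784 CPM in heat-treated leaves, against 18.6, 29.3 and 28.2 CPM in untreated leaves (log2 change 6.42 ± 0.33, adjusted p = 2.3e-08), 85.5-fold higher. PIP2;4 (LOC_Os07g26630) had 34.8, 43.9 and 33.9 CPM after heat and 0.852, 0.625 and 0.726 CPM without heat (log2 change 5.67 ± 0.19, adjusted p = 7.3e-10). Groups lay far apart for both. The abundant channels TIP1;1, PIP1;2 and PIP2;1 rose by 2.76 ± 0.21, 1.24 ± 0.11 and 1.22 ± 0.11. TIP4;1 (LOC_Os05g14240) had 105, 128.4 and 122 CPM in heat-treated leaves, against 185, 173 and 169 CPM in untreated leaves (log2 change -0.57 ± 0.21, adjusted p = 0.04). The TIP4;1 call ended without WT_heat replicate 1, 2 or 3 or WT_control replicate 1, 2 or 3 (log2 change -0.61 to -0.46, adjusted p = 0.057 to 0.14), and its adjusted p was 0.0021 to 0.14 over 12 alternatives.

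Of 11 tested genes of sucrose synthesis, cleavage and transport 3 rose and 2 fell (median 0.28), against 24.8% and 26.3% of all genes. SWEET14 (LOC_Os11g31190), a sugar efflux transporter, had 3.39, 3.81 and 2.70 CPM in heat-treated leaves, against 26.9, 26.9 and 19.6 CPM in untreated leaves (log2 change -2.89 ± 0.27, adjusted p = 3.3e-06). SUT1 (LOC_Os03g07480), a sucrose/proton symporter, had 37.1, 40.6 and 39.1 CPM after heat and 89.4, 93.5 and 102 CPM without heat (log2 change -1.28 ± 0.09, adjusted p = 2.3e-07). SUT4 (LOC_Os02g58080), another sucrose transporter, had 27.8, 37.2 and 36.5 CPM in heat-treated leaves, against 19.0, 19.8 and 18.02 CPM in untreated leaves (log2 change 0.84 ± 0.11, adjusted p = 3.9e-05). SWEET14 and SUT1 lay below and SUT4 above the untreated range in every heat-treated library. The sucrose synthase gene SUS1 (LOC_Os03g28330) had 964, 753 and 1132 CPM after heat and 429.6, 462 and 624 CPM without heat (log2 change 0.91 ± 0.22, adjusted p = 0.0037). All 3 tested trehalose phosphate phosphatase genes, which code for the last step of trehalose synthesis, were called higher (median 1.91, or 1.71 with TPP3 at its bound). TPP1 (LOC_Os02g44230) had 14.4, 17.02 and 13.6 CPM in heat-treated leaves, against 3.63, 4.43 and 3.91 CPM in untreated leaves (log2 change 1.91 ± 0.20, adjusted p = 8.2e-06). TPP2 (LOC_Os10g40550) had 17.43, 25.5 and 21.3 CPM after heat and 6.48, 7.40 and 5.71 CPM without heat (log2 change 1.71 ± 0.18, adjusted p = 9.1e-06). Neither overlapped between groups. TPP3 had 0.097, 0.294 and 0 CPM in heat-treated leaves, against 0, 0 and 0 CPM in untreated leaves, at least 3.25-fold higher with overlapping groups. The TPP3 call ended without WT_heat replicate 1 or 2 or WT_control replicate 1, 2 or 3 (adjusted p = 0.07 to 0.13), and its adjusted p was 0.016 to 0.18 over 10 alternatives.

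Of 11 listed starch genes 4 were matched and tested, and these moved little. Of the 4, 1 rose and 2 fell (median -0.40), against 24.8% and 26.3% of all genes. AGPS2 (LOC_Os08g25734), the small subunit of the enzyme that supplies ADP-glucose, had 149, 150.5 and 131 CPM in heat-treated leaves, against 191, 185 and 201 CPM in untreated leaves (log2 change -0.42 ± 0.13, adjusted p = 0.014). ISA1 (LOC_Os08g40930), a debranching enzyme, had 7.54, 6.91 and 7.96 CPM after heat and 14.4, 11.5 and 10.504 CPM without heat (log2 change -0.70 ± 0.13, adjusted p = 0.0008). BEI (LOC_Os06g51084), a branching enzyme, had 143, 132 and 158 CPM in heat-treated leaves, against 129, 113 and 119 CPM in untreated leaves (log2 change 0.26 ± 0.08, adjusted p = 0.022). Groups did not overlap for any of the 3. The AGPS2 call ended without WT_heat replicate 3 (log2 change -0.32, adjusted p = 0.09), and its adjusted p was 0.0062 to 0.09 over 12 alternatives. The BEI call ended without WT_control replicate 2 or 3 (log2 change 0.22 to 0.25, adjusted p = 0.061 to 0.09), and its adjusted p was 0.00034 to 0.09 over 12 alternatives. The starch synthase gene SSI (29.5 to 31.1 CPM after heat and 33.1 to 45.7 CPM without) gave no call. PPDKB (LOC_Os05g33570), pyruvate phosphate dikinase, had 321, 295 and 279 CPM after heat and 801, 814 and 878 CPM without heat (log2 change -1.48 ± 0.10, adjusted p = 1.4e-07).

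Of 13 listed nitrogen genes 7 were matched and tested. Of these 6 were called lower, against 26.3% of all genes, and 1 gave no call (median -0.78). The number called lower was 5 without WT_heat replicate 1, 2 or 3 or WT_control replicate 1 or 2. NIA1 (LOC_Os08g36480), nitrate reductase, had 22.1, 24.6 and 14.6 CPM in heat-treated leaves, against 446, 474 and 309.7 CPM in untreated leaves (log2 change -4.33 ± 0.32, adjusted p = 4.1e-07), a 20.1-fold lower level. AMT1;1 (LOC_Os04g43070), an ammonium transporter, had 86.2, 72.0 and 47.8 CPM after heat and 410.3, 342 and 321 CPM without heat (log2 change -2.38 ± 0.22, adjusted p = 2.7e-06). The 3 heat-treated libraries lay far below the untreated ones for both. Downstream in assimilation, the ferredoxin-dependent glutamate synthase gene FD-GOGAT fell by 0.75 ± 0.13, and the cytosolic glutamine synthetase gene GS1;1 by 0.78 ± 0.12, on the log2 scale. The ammonium transporter gene AMT1;2 was at 0.0431 to 0.141 CPM after heat and 0 to 0.203 CPM without and gave no call. Of 9 phosphate and iron genes 3 fell, against 26.3% of all genes, and 6 gave no call (median -0.24). NAS3 (LOC_Os07g48980), nicotianamine synthase for metal chelation, had 4.35, 3.64 and 4.56 CPM in heat-treated leaves, against 7.16, 6.80 and 13.6 CPM in untreated leaves (log2 change -1.13 ± 0.39, adjusted p = 0.03). SPX2 (LOC_Os02g10780), a phosphate sensor protein, had 3.07, 3.29 and 3.196 CPM after heat and 8.61, 5.66 and 5.85 CPM without heat (log2 change -1.07 ± 0.37, adjusted p = 0.03). Heat-treated libraries stood below the untreated ones in both. The NAS3 call ended without WT_heat replicate 1, 2 or 3 or WT_control replicate 3 (log2 change -1.17 to -0.74, adjusted p = 0.065 to 0.15), and its adjusted p was 0.0098 to 0.15 over 12 alternatives. The SPX2 call ended without WT_heat replicate 1, 2 or 3 or WT_control replicate 1 (log2 change -1.08 to -0.85, adjusted p = 0.066 to 0.11), and its adjusted p was 0.0026 to 0.11 over 12 alternatives. PHR2, the regulator of the phosphate response, fell by 0.26 ± 0.07 on the log2 scale.

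In the joint list of photosynthesis and photorespiration 8 of 54 listed genes were matched and tested. Of these 1 rose and 3 fell (median -0.32), against 24.8% and 26.3% of all genes, and WT_heat replicate 3 was the lowest of the heat-treated libraries in all 8. FBA (LOC_Os11g07020), plastid aldolase of the Calvin cycle, had 2580.0, 2540.4 and 1330.4 CPM in heat-treated leaves, against 6415, 6658 and 5948 CPM in untreated leaves (log2 change -1.56 ± 0.22, adjusted p = 7.9e-05). GLO1 (LOC_Os03g57220), glycolate oxidase of photorespiration, had 779, 713 and 532 CPM after heat and 1529, 1679 and 1490.0 CPM without heat (log2 change -1.21 ± 0.18, adjusted p = 0.00012). LFNR1 (LOC_Os06g01850), the reductase that makes NADPH at photosystem I, had 466, 467 and 417 CPM in heat-treated leaves, against 362, 326 and 330.2 CPM in untreated leaves (log2 change 0.41 ± 0.11, adjusted p = 0.0078). FBA and GLO1 lay below and LFNR1 above the untreated range in every heat-treated library. Without WT_heat replicate 3 the counts were again 1 higher and 3 lower. The antenna gene LHCB1.2 (5114 to 6925 CPM after heat and 7347 to 8489 CPM without) gave no call.

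Chlorophyll synthesis moved in opposite directions at its 2 protochlorophyllide oxidoreductase genes, which code for the light-dependent step. PORA (LOC_Os04g58200) had 132, 153 and 132 CPM in heat-treated leaves, against 673, 1225 and 1110.3 CPM in untreated leaves (log2 change -2.85 ± 0.21, adjusted p = 4.7e-07). PORB (LOC_Os10g35370) had 811, 787 and 566 CPM after heat and 252, 266 and 258 CPM without heat (log2 change 1.48 ± 0.17, adjusted p = 1.6e-05). PORA was lower and PORB higher in all 3 heat-treated libraries. CHLH (LOC_Os03g20700), a subunit of the magnesium chelatase, had 815, 758 and 525 CPM in heat-treated leaves, against 1259, 1377 and 1251 CPM in untreated leaves (log2 change -0.89 ± 0.21, adjusted p = 0.0039). GSA (LOC_Os08g41990), the aminotransferase that makes the precursor aminolevulinate, had 190.0, 181 and 188 CPM after heat and 155, 138 and 142 CPM without heat (log2 change 0.36 ± 0.10, adjusted p = 0.012). In all, 2 of 8 genes rose and 3 fell (median -0.25), against 24.8% and 26.3% of all genes. CHLD (58.3 to 69.4 CPM after heat and 81.1 to 83.0 CPM without), CHLI (111 to 144 CPM after heat and 139.9 to 144 CPM without) and CHLG (42.5 to 53.1 CPM after heat and 44.04 to 48.6 CPM without) gave no call. Of the chlorophyll breakdown genes NOL (LOC_Os03g45194), a chlorophyll b reductase, had 11.6, 9.76 and 10.8 CPM in heat-treated leaves, against 18.3, 18.1 and 22.9 CPM in untreated leaves (log2 change -0.88 ± 0.12, adjusted p = 8.3e-05), and its untreated values were all higher. SGR (31.1 to 39.8 CPM after heat and 36.0 to 48.4 CPM without) and NYC1 (117 to 151 CPM after heat and 113 to 125 CPM without) gave no call.

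All 3 phytochrome genes, which code for the red light receptors, fell (median -0.76). They were the only matched genes of 11 listed light receptors and partners. PHYA (LOC_Os03g51030) had 22.9, 19.1 and 22.1 CPM in heat-treated leaves, against 45.2, 54.0 and 51.3 CPM in untreated leaves (log2 change -1.23 ± 0.12, adjusted p = 5.5e-06). PHYB (LOC_Os03g19590) had 40.8, 31.2 and 35.5 CPM after heat and 55.1, 62.9 and 63.7 CPM without heat (log2 change -0.76 ± 0.11, adjusted p = 8.3e-05). PHYC fell by 0.73 ± 0.09 on the log2 scale, and WT_heat replicate 1 stood highest of the heat-treated libraries in all 3 genes. In the plant clock, morning, daytime and evening factors repress each other in turn. Of 12 tested clock and flowering genes 6 rose and 4 fell (median 0.33), against 24.8% and 26.3% of all genes. LHY (LOC_Os08g06110), the morning factor, had 92.3, 93.5 and 82.4 CPM in heat-treated leaves, against 2782, 3073 and 2972 CPM in untreated leaves (log2 change -5.04 ± 0.13, adjusted p = 2.5e-10). PRR95 (LOC_Os09g36220), a daytime factor, had 96.5, 82.2 and 99.3 CPM after heat and 293, 295 and 293 CPM without heat (log2 change -1.66 ± 0.09, adjusted p = 4.5e-08). These lay far below their untreated levels. GI (LOC_Os01g08700) had 1377, 1028 and 1133 CPM in heat-treated leaves, against 361, 471 and 369.6 CPM in untreated leaves (log2 change 1.56 ± 0.16, adjusted p = 5.8e-06). TOC1 (LOC_Os02g40510) had 20.7, 18.9 and 26.2 CPM after heat and 8.19, 7.09 and 8.04 CPM without heat (log2 change 1.497 ± 0.14, adjusted p = 2.3e-06). These evening genes stood above the untreated range throughout, PRR37 rose by 1.201 ± 0.10 and the evening complex gene ELF3-1 fell by 0.77 ± 0.09 on the log2 scale. The labels give no hour of harvest, so a part of time of day in these values, and in those of genes with a daily rhythm elsewhere, was not tested. The florigen gene HD3A (2.80 to 4.16 CPM after heat and 4.32 to 6.21 CPM without) and the flowering regulator gene HD1 (1.01 to 1.89 CPM after heat and 0.847 to 1.42 CPM without) gave no call.

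**Figure D4:**
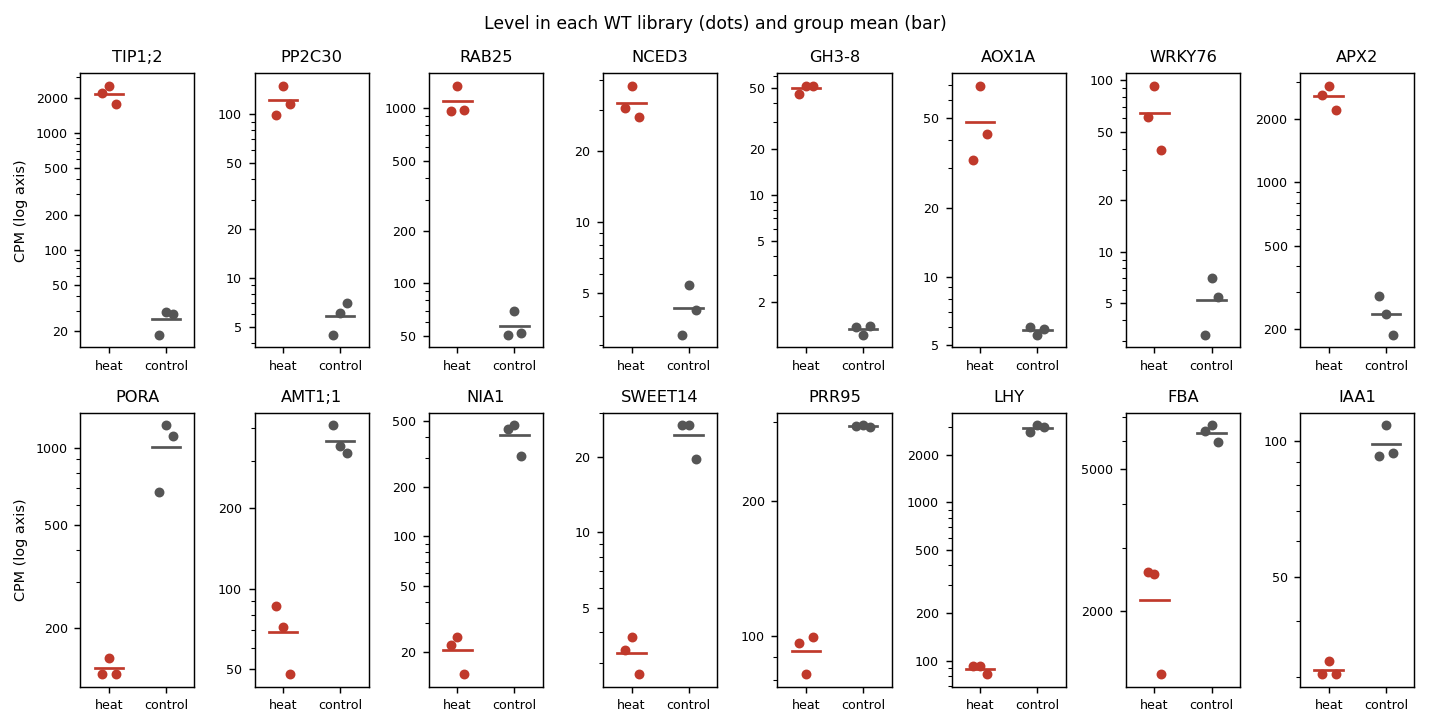
Level (CPM, log axis, with its own range in each panel) of 16 genes in each WT library, 3 heat-treated libraries on the left and 3 untreated ones on the right of a panel, with bars at the group means. The upper row holds genes that rose and the lower row genes that fell. In all 16 panels the groups are apart, and FBA is lowest in WT_heat replicate 3 at 1330.4 CPM.

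Among the lists, chaperones had the highest median change. All 9 tested chaperone genes rose (median 11.23). HSP26.7 (LOC_Os03g14180), a small heat shock protein of the plastid, had 787, 1027 and 1081 CPM in heat-treated leaves, against 0, 0 and 0 CPM in untreated leaves, at least 24116-fold higher. HSP23.2 (LOC_Os04g36750), its counterpart of the endoplasmic reticulum, had 406, 505 and 546 CPM after heat and 0, 0.0202 and 0.145 CPM without heat (log2 change 13.04 ± 0.94, adjusted p = 3.2e-07). Untreated leaves held next to no counts of either. HSP90-1 rose by 6.93 ± 0.94, and its untreated level was 215 CPM in WT_control replicate 1 against 43.8 and 45.6 CPM in the other 2. Heat shock factor genes rose in 10 of 13 and fell in 3 (median 2.48). HSFA2A (LOC_Os03g53340), an activator, had 1207, 1324 and 1354 CPM in heat-treated leaves, against 0.287, 0.161 and 0 CPM in untreated leaves (log2 change 13.09 ± 1.47, adjusted p = 1.3e-05). HSFB2B (LOC_Os08g43334), of the class that lacks an activation domain, had 166, 228 and 172 CPM after heat and 1.64, 1.503 and 1.68 CPM without heat (log2 change 6.87 ± 0.44, adjusted p = 1.1e-07). HSFC1A (LOC_Os01g43590) had 1.90, 1.96 and 1.03 CPM in heat-treated leaves, against 7.97, 8.09 and 6.71 CPM in untreated leaves (log2 change -2.22 ± 0.38, adjusted p = 0.00035). HSFC2A (LOC_Os02g13800) had 4.45, 3.43 and 4.88 CPM after heat and 6.79, 8.03 and 7.69 CPM without heat (log2 change -0.82 ± 0.17, adjusted p = 0.0016). These class A and B members lay above and these class C members below the untreated range. The other gene that fell was of class A or B, since the list holds no further class C gene.

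The endoplasmic reticulum list rose in all 9 tested genes (median 3.25). This compartment folds secreted proteins, and a sensor kinase, IRE1, splices the transcript of BZIP50 when unfolded proteins build up. PDIL2-3 (LOC_Os09g27830), a disulfide isomerase, had 609.9, 663 and 623 CPM in heat-treated leaves, against 26.9, 21.8 and 24.0 CPM in untreated leaves (log2 change 4.70 ± 0.12, adjusted p = 2.5e-10). BIP1 (LOC_Os02g02410), the compartment's HSP70 chaperone, had 3554, 3654 and 3587 CPM after heat and 154, 119 and 153 CPM without heat (log2 change 4.66 ± 0.15, adjusted p = 7.3e-10). Both were nearly equal among the heat-treated libraries. The sensor gene IRE1 rose by 1.16 ± 0.08, BZIP50 by 2.67 ± 0.10 and the membrane-bound factor gene BZIP60 by 3.25 ± 0.13. In the list of ubiquitin, SUMO and autophagy genes 3 of 6 rose and 2 fell (median 0.44), against 24.8% and 26.3% of all genes. SIZ1 (LOC_Os05g03430), a ligase that attaches SUMO to proteins, had 171, 183 and 181 CPM after heat and 109, 111 and 109 CPM without heat (log2 change 0.70 ± 0.07, adjusted p = 6e-06). ATG8B (LOC_Os04g53240) had 41.2, 42.7 and 44.5 CPM in heat-treated leaves, against 65.5, 68.5 and 63.3 CPM in untreated leaves (log2 change -0.62 ± 0.08, adjusted p = 3.1e-05). ATG8C (LOC_Os08g09240) had 90.8, 80.6 and 80.9 CPM after heat and 105, 115 and 106 CPM without heat (log2 change -0.37 ± 0.08, adjusted p = 0.0019). SIZ1 thus stood above and these autophagosome genes below the untreated range, while ATG8A (185 to 206 CPM after heat and 115 to 209 CPM without) gave no call.

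Antioxidant genes rose in 9 of 13 and gave no call in 4 (median 0.55). APX2 (LOC_Os07g49400), a cytosolic ascorbate peroxidase, had 2586, 2873 and 2208 CPM in heat-treated leaves, against 289, 236 and 188 CPM in untreated leaves (log2 change 3.43 ± 0.19, adjusted p = 3.1e-08). SODCC1 (LOC_Os03g22810), a copper zinc superoxide dismutase, had 470.4, 549 and 469.9 CPM after heat and 199, 198 and 183 CPM without heat (log2 change 1.36 ± 0.09, adjusted p = 1.2e-07). Both lay well above the untreated range. APX1 rose by 1.32 ± 0.10. The catalase gene CATA gave no call (413 to 497 CPM after heat and 510.2 to 999.5 CPM without), with its highest value in WT_control replicate 3. In respiration and fermentation 3 of 6 genes rose and 1 fell (median 0.59), against 24.8% and 26.3% of all genes, the fall being PPDKB. AOX1A (LOC_Os04g51150), the alternative oxidase of mitochondria, had 32.7, 69.4 and 42.4 CPM in heat-treated leaves, against 5.98, 5.53 and 5.87 CPM in untreated leaves (log2 change 3.06 ± 0.25, adjusted p = 9.5e-07). ADH1 (LOC_Os11g10480), alcohol dehydrogenase, had 54.0, 80.5 and 62.4 CPM after heat and 37.2, 39.2 and 53.0 CPM without heat (log2 change 0.60 ± 0.16, adjusted p = 0.0073). Groups did not overlap for either. PDC1, a pyruvate decarboxylase gene, had 0.0431, 12.4 and 0.218 CPM in heat-treated leaves, against 0.154, 0.313 and 0.155 CPM in untreated leaves, and its call (log2 change 4.34 ± 1.58, adjusted p = 0.037) rested on WT_heat replicate 2. The PDC1 call ended without WT_heat replicate 2 or WT_control replicate 1, 2 or 3 (log2 change -0.65 to 4.76, adjusted p = 0.075 to 0.73), and its adjusted p was 0.0086 to 0.73 over 11 alternatives. ADH2 (0.743 to 1.997 CPM after heat and 0.595 to 1.45 CPM without) and PDC2 (55.9 to 66.9 CPM after heat and 70.04 to 80.4 CPM without) gave no call.

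Signalling genes of the calcium and kinase list rose in 5 of 9 and gave no call in 4 (median 0.49). CIPK23 (LOC_Os07g05620), a kinase activated by calcium sensors, had 43.1, 58.9 and 59.6 CPM in heat-treated leaves, against 23.9, 22.6 and 28.8 CPM in untreated leaves (log2 change 1.101 ± 0.14, adjusted p = 3.7e-05). Its sensor partner CBL1 (LOC_Os10g41510) had 51.7, 69.5 and 58.6 CPM after heat and 31.9, 32.03 and 27.2 CPM without heat (log2 change 0.98 ± 0.11, adjusted p = 1.2e-05). Heat-treated libraries stood above the untreated ones for both. Among AP2/ERF regulators of cold, drought and heat responses 5 of 9 rose and 2 fell (median 0.78). DREB1C (LOC_Os06g03670) had 12.2, 22.6 and 14.9 CPM in heat-treated leaves, against 0.308, 0.202 and 0.126 CPM in untreated leaves (log2 change 6.29 ± 0.43, adjusted p = 2.2e-07). DREB2A (LOC_Os01g07120) had 29.7, 43.8 and 37.2 CPM after heat and 16.2, 16.4 and 14.7 CPM without heat (log2 change 1.23 ± 0.15, adjusted p = 2.9e-05). Their untreated values were lower throughout. DREB1A, of the same cold-response group as DREB1C, fell by 3.73 ± 0.58 on the log2 scale, from a mean under 5 CPM. EREBP1 (124 to 138 CPM after heat and 120.2 to 127.6 CPM without) and DREB1H (0 to 0.0545 CPM after heat and 0.0821 to 0.184 CPM without) gave no call. Of 13 listed NAC, MYB and other stress regulators 4 were matched and tested. Of these 2 rose and 1 fell (median 0.91), against 24.8% and 26.3% of all genes. MYB4 (LOC_Os04g43680) had 13.5, 27.7 and 23.5 CPM in heat-treated leaves, against 7.31, 5.72 and 7.03 CPM in untreated leaves (log2 change 1.69 ± 0.25, adjusted p = 0.00013). NAC5 (LOC_Os11g08210) had 108, 134 and 101 CPM after heat and 39.6, 40.3 and 35.9 CPM without heat (log2 change 1.57 ± 0.14, adjusted p = 1.5e-06). MYBS3 (LOC_Os10g41200) had 70.7, 39.3 and 35.6 CPM in heat-treated leaves, against 85.1, 80.4 and 80.9 CPM in untreated leaves (log2 change -0.76 ± 0.27, adjusted p = 0.031). MYB4 and NAC5 lay above and MYBS3 below the untreated range. The MYBS3 call ended without WT_heat replicate 2 or 3 or WT_control replicate 1, 2 or 3 (log2 change -0.77 to -0.54, adjusted p = 0.059 to 0.13), and its adjusted p was 0.0023 to 0.13 over 12 alternatives. NAC6 (163 to 209.6 CPM after heat and 84.2 to 201 CPM without) gave no call.

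In the cell wall list 3 of 11 genes rose and 1 fell (median 0.12), against 24.8% and 26.3% of all genes. CESA6 (LOC_Os07g14850), a cellulose synthase of the primary wall, had 248, 357 and 312 CPM in heat-treated leaves, against 147, 155 and 177 CPM in untreated leaves (log2 change 0.93 ± 0.12, adjusted p = 5.3e-05). CESA5 (LOC_Os03g62090), of the same kind, had 156, 148 and 181 CPM after heat and 86.6, 97.3 and 109 CPM without heat (log2 change 0.73 ± 0.13, adjusted p = 0.00057). EXPA4 (LOC_Os05g39990), an expansin that loosens walls, had 35.1, 21.9 and 23.23 CPM in heat-treated leaves, against 61.6, 65.5 and 56.5 CPM in untreated leaves (log2 change -1.19 ± 0.26, adjusted p = 0.0024). The cellulose synthase pair lay above and the expansin below the untreated range in every heat-treated library. The only matched gene of membrane lipids, SSI2 (LOC_Os01g69080), a stearoyl desaturase that introduces the first double bond of plastid fatty acids, had 73.3, 64.5 and 66.5 CPM after heat and 189.7, 186 and 179 CPM without heat (log2 change -1.44 ± 0.10, adjusted p = 2.6e-07), again without overlap.

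Markers of other cells gave a check of the tissue label. Leaf-type transcripts were abundant, with LHCB1.2 at 5114 to 6925 CPM after heat and 7347 to 8489 CPM without. The 2 shoot meristem markers OSH15 (0 to 0.0323 CPM after heat and 0 to 0.126 CPM without) and OSH71 (0.0862 to 0.211 CPM after heat and 0.0821 to 0.262 CPM without) were at or near 0. Of 4 root markers the phosphate transporter gene PT6 had no count, NRT2.1 was at 0.0215 to 0.12 CPM after heat and 0 to 0.213 CPM without and IRT1 at 0.376 to 1.77 CPM after heat and 1.70 to 2.13 CPM without, and none of these was called. LSI1 (LOC_Os02g51110), a silicon channel known from rice roots, had 17.72, 25.4 and 17.1 CPM in heat-treated leaves, against 4.75, 5.98 and 5.72 CPM in untreated leaves (log2 change 1.87 ± 0.17, adjusted p = 2.3e-06). The summed root list was at 18.8 to 25.9 CPM after heat and 6.80 to 8.06 CPM without, with LSI1 the larger part in every WT library and IRT1 most of the rest, and its part in other results was not tested.

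Genes of DNA replication and division were low and rose in 7 of 12, with no call in 5 (median 1.28). MCM7 (LOC_Os12g37400), a subunit of the replicative helicase, had 6.0003, 6.33 and 7.47 CPM in heat-treated leaves, against 1.34, 1.19 and 1.49 CPM in untreated leaves (log2 change 2.30 ± 0.30, adjusted p = 4e-05). PCNA (LOC_Os02g56130), the replication clamp, had 11.2, 11.9 and 16.99 CPM after heat and 7.87, 6.41 and 8.45 CPM without heat (log2 change 0.82 ± 0.24, adjusted p = 0.014). All heat-treated libraries stood above the untreated ones for both. The PCNA call ended without WT_heat replicate 3 or WT_control replicate 2 (log2 change 0.64 to 0.71, adjusted p = 0.058 to 0.059), and its adjusted p was 0.002 to 0.059 over 12 alternatives. The summed list was at 40.4 to 85.1 CPM after heat and 27.8 to 33.2 CPM without. WT_heat replicate 3 was the highest of all 6 WT libraries in all 12 genes, and without it 3 genes rose and 1 fell. Genes often used as stable references were not level either: all 3 that were tested rose (median 1.00). GAPC2 (LOC_Os02g38920) had 112, 146 and 105 CPM in heat-treated leaves, against 47.8, 40.6 and 38.8 CPM in untreated leaves (log2 change 1.51 ± 0.14, adjusted p = 2.7e-06). EEF1A (LOC_Os03g08020) had 287, 283 and 261 CPM after heat and 151, 136 and 129 CPM without heat (log2 change 1.00 ± 0.09, adjusted p = 2.1e-06). ACT1 rose by 0.77 ± 0.10. The median log2 change of genes with a mean of at least 10 CPM was -0.01 under the scaling used. It was 0.03 under the median-ratio scaling and -0.15 with library totals alone. The first 2 scalings take most genes as unchanged and so set this median near 0, although 51.1% of tested genes were called. These medians therefore cannot show whether total RNA changed, which was not tested.

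Outside the lists, the 2 largest fitted rises and the 2 largest fitted falls among called genes at 5 CPM or more are given by ID, since they carry no name here. LOC_Os11g13980 had 116, 153 and 164 CPM in heat-treated leaves, against 0, 0 and 0 CPM in untreated leaves, at least 3599.8-fold higher. LOC_Os06g09688 was called higher (adjusted p = 0.044) on WT_heat replicate 1 alone, with 159.7, 0 and 0 CPM in heat-treated leaves, against 0, 0 and 0 CPM in untreated leaves, so without that library it has no count in either group. LOC_Os08g08850 had 0.194, 0 and 0.0436 CPM in heat-treated leaves, against 43.2, 34.0 and 29.1 CPM in untreated leaves (log2 change -8.75 ± 0.60, adjusted p = 5.1e-07). LOC_Os02g57060 had 0.215, 0.329 and 0.175 CPM after heat and 55.8, 74.8 and 66.3 CPM without heat (log2 change -8.10 ± 0.32, adjusted p = 2.8e-09). The 2 falls and the first rise left no overlap between groups.

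The heat response was also measured in the htg3 lines, as the mean of both lines. These differ from WT in genotype and shared the fit's estimate of spread, so they are no repeat of the WT comparison. Of the 322 listed genes, 0 had a heat response called different between the htg3 lines and WT by edgeR, where 33 of all 28823 genes (0.114%) did. At an unadjusted p under 0.05 there were 56 such genes, and DESeq2 called 25 and limma voom 0. Response values in the htg3 lines were -4.76 ± 0.28 for NIA1, -5.06 ± 0.11 for LHY, -1.84 ± 0.18 for PORA, 4.49 ± 0.20 for PP2C30, 5.69 ± 0.28 for TIP1;2 and 4.34 ± 0.30 for GH3-8 (log2 change ± SE). In WT the same genes had -4.33 ± 0.32, -5.04 ± 0.13, -2.85 ± 0.21, 4.37 ± 0.23, 6.42 ± 0.33 and 5.23 ± 0.35, in that order. These genes were chosen for large responses. Of all 14722 genes called in WT, 12552 were also called in the htg3 lines, direction aside. The share of all tested genes called in the htg3 lines is not given here, so overlaps with the WT calls have no background beside them. Of the 221 listed genes called in WT, 200 were called in the same direction in the htg3 lines, 20 gave no call there and the aquaporin gene PIP1;3 was called in the other direction, with -0.31 ± 0.12 in the htg3 lines and 0.43 ± 0.14 in WT (adjusted p of the difference 0.11). The PIP1;3 call ended without WT_heat replicate 3 or WT_control replicate 2 (log2 change 0.35 to 0.40, adjusted p = 0.055 to 0.093), and its adjusted p was 0.0041 to 0.093 over 12 alternatives. Those without a call in the htg3 lines include 4 genes of brassinosteroid and gibberellin signalling, picked after their values were seen. Other genes of these 2 lists were called in the same direction as in WT: D2 (-0.84 ± 0.15 in the htg3 lines), D11 (-1.23 ± 0.22), DWARF4 (1.60 ± 0.27), GA20OX2 (-1.21 ± 0.22), KO2 (-0.62 ± 0.13) and GID1 (0.74 ± 0.09). BZR1 had -0.03 ± 0.13 in the htg3 lines and -0.98 ± 0.15 in WT. BRI1 had -0.11 ± 0.08 in the htg3 lines and -0.61 ± 0.09 in WT. SLR1 had -0.03 ± 0.07 in the htg3 lines and -0.49 ± 0.08 in WT. GID2 had -0.02 ± 0.11 in the htg3 lines and 0.52 ± 0.12 in WT. The adjusted p of the differences of BZR1, BRI1, SLR1 and GID2 was 0.073, 0.097, 0.096 and 0.17, so none was called different. PPDKB and RAB25 had a smaller adjusted p of the difference, 0.058 each, again without a call. PPDKB had -2.19 ± 0.09 in the htg3 lines and -1.48 ± 0.10 in WT, and RAB25 had 3.12 ± 0.14 and 4.25 ± 0.18.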

How the data were processed

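RNA-seq of rice leaves gave 1 deposited table of estimated counts per gene, which the authors made with StringTie, per the file headers. The deposited values are whole numbers, so no rounding was needed. The tools named in the submitters' processing notes are StringTie 1.3.3b, HISAT2 2.1.0, fastp 0.20.1 and DESeq2, with no role given. The genome build, coordinates and strand setting are not given in the sources used here, so genes are given by MSU locus ID, and reads of overlapping or near-identical genes (clustered small heat shock protein, RAB16, WRKY and JAZ genes) cannot be assigned with certainty. Low values gathered at multiples of 4 (the value 4 occurs 9196 times, 3 occurs 3918 times and 5 occurs 5346 times). About 4 counts were therefore read as 1 fragment, and the floor of a group was set at 3 fragments (12 counts). WT libraries held 93.3 to 97.0 M counts, and their depth limits counting error only.

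Counts were tested with edgeR 4.0.16 in R 4.3.3 (TMM scaling, filterByExpr over 6 groups, quasi-likelihood F test), with 6 group means fitted jointly over all 14 libraries. The contrast was WT_heat minus WT_control, and the difference of heat responses was htg3 lines minus WT. The SE of a log2 change is its size divided by the square root of F. P-values were adjusted over all 28823 tested genes. The steps were tested on simulated data. Alternatives were median-ratio scaling, no filter, DESeq2 1.42.0, voom of limma 3.58.1, WT libraries alone, counts divided by 4, and leaving out each WT library.

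Members, lists and names were chosen with earlier results of these data known. Of 533 listed genes, 334 were found by symbol in a RefSeq name table (assembly ASM3414082v1) on the chromosome of their ID, 330 also within 0.5 Mb of the place their ID gives relative to other genes, and 322 of these were tested. The planned match by product name could not be made, since the table holds no product names. Small lists were merged (chaperones, photosynthesis with photorespiration) after matching, with earlier results of these data known. Lists with fewer than 3 matched genes are not described as lists. In each list the 2 largest called rises and 2 largest called falls at 5 CPM or more are named, and genes without a call where there are 3 or fewer. A few genes that this rule or the lists would name are not reported here. Other genes named were chosen after their values were seen.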

Additional observations from a re-analysis of the deposited data

How the results depend on the processing

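The numbers of genes called in WT kept within 1.5 times their values under all 12 alternatives: 6355 to 7908 higher, 6710 to 7990 lower and 7021 to 7872 at least 2-fold changed. Each alternative kept 87.6% to 98.6% of the called genes, and 0 of these changed direction. Median-ratio scaling gave 7475 higher and 7178 lower, and DESeq2 7908 and 7647, against 7134 and 7588. The number of listed genes whose heat response differed between the htg3 lines and WT was 0, and became 4 without a filter on low counts, 25 with DESeq2, and 0 to 3 when single WT libraries were left out, 3 being the value without WT_heat replicate 3. The cause was not tested.

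Of 182 genes followed by name, 15 lost their call in at least 1 alternative: AGPS2, BEI, CHT1, ERS1, LOG, MYBS3, NAS3, PCNA, PDC1, PIP1;3, SAPK10, SPX2, TIP4;1, TPP3 and WRKY24. ATG8A, CHLD, EUI1, PAL2, RAB16D and SSI gained a call in at least 1. Of the called genes PDC1 alone changed sign, with log2 changes of -0.65 to 4.97 when single libraries were left out. DESeq2 gave it no adjusted p. The other changes of sign were in genes without a call. PT6, without a count in WT, gave 0.15 with voom. SAPK8 gave 0.016 with median-ratio scaling and with DESeq2. When single libraries were left out, the values ran from -0.044 to 0.028 for SAPK8, -0.19 to 0.11 for PBZ1, -0.63 to 5.87 for AMT1;2, -0.56 to 2.01 for NRT2.1, -0.058 to 0.22 for DWARF, -0.0046 to 0.14 for 4CL3 and -0.045 to 0.49 for NAC6. Of the counts of list members, 51 of 936 values moved by more than 1.5 times, 42 of them counts of members that fell, which are small. No paired analysis was possible because the labels give no replicate numbers or pairing, and the numbers used here only name libraries.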

Other observations

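Calls were spread over all 12 chromosomes. The share of tested genes that rose was lowest on chromosome 11, at 21.0% of 1707 genes, and highest on chromosome 3, at 28.5% of 3504 genes. The share that fell ran from 24.2% of 1707 genes on chromosome 12 to 28.1% of 4009 genes on chromosome 1. These shares were not tested. By level, 8.95% of the 7955 genes under 1 CPM rose and 11.0% fell, whereas 41.9% of the 93 genes over 1000 CPM rose and 36.6% fell.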
